A study of Mus musculus with 12 samples.

Results

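The 38 genes described here encode proteins that copy DNA or divide the cell, and they were taken by symbol from the 48440 genes of the counts table. Each symbol matched 1 row, and all 38 passed the filter on low counts that left 14488 genes for testing. The members were placed in role classes: 9 for origin licensing and replication, 2 for nucleotide supply, 9 mitotic cyclins, kinases and their regulators, 6 for checkpoint and kinetochore, 7 for spindle and cytokinesis, and 5 for chromosome structure.

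Primary hepatocytes were isolated by collagenase perfusion from C57BL/6J mice, cultured for 16 h and exposed to 5 µM actinomycin D, which blocks transcription, for 0, 2 or 6 h. Mettl3 cKO cells came from Mettl3 flox/flox mice with Alb-Cre, in which Cre under the Albumin promoter removes exons 2 to 4 of Mettl3, the enzyme that places m6A on mRNA, in cells that express Albumin. Control cells, called WT in the labels, came from mice that kept Mettl3, and both genotypes received the same drug. Poly(A) RNA of 2 libraries for each genotype and time was sequenced, 12 in all, and the age and sex of the donors are not given in the sources used here.

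The level of Mettl3 over the whole gene, which is no direct check of the exon deletion, was 22.6 and 23.2 CPM (reads of a gene per 1000000 reads of the library total) in the 0 h libraries labelled Mettl3 cKO, against 33.4 and 28.5 CPM in Control. At 2 h it was 24.0 and 25.8 CPM in the libraries labelled Mettl3 cKO, against 24.2 and 25.5 CPM in Control, and at 6 h 19.4 and 24.2 CPM, against 15.0 and 13.7 CPM. The whole-gene level of the Mettl3 cKO libraries was thus lower at 0 h (log2 difference −0.47, edgeR adjusted p = 0.00033), overlapped at 2 h and was higher at 6 h (0.31, 0.0154), and Mettl3 cKO stands here for the libraries so labelled. Totals ran over 16952084 to 20914516 reads per library. The Control libraries at 6 h stood apart from the others, with 20246 and 16565 reads of Xist, the RNA of the inactive X chromosome, against at most 6 in each of the other 10 libraries, and with 0 and 1 reads of the Y-linked Ddx3y, against 2440 to 3210. Hepatocyte markers (10 genes, most of the sum from Alb) summed to 49695 to 52881 CPM in Mettl3 cKO and 53125 to 54607 CPM in Control at 0 h, and 3 were higher and 6 lower in Mettl3 cKO (median log2 difference −0.50). Markers of macrophages (12 genes) summed to 471 to 509.8 CPM in Mettl3 cKO and 213 to 215 CPM in Control, and 11 of the 12 were higher in Mettl3 cKO. Endothelial markers (11 genes) summed to 403 to 434 and 319 to 331 CPM in the same order of genotypes. Stellate and fibroblast markers (11 genes) summed to 346 to 365 and 232 to 235 CPM, and bile duct markers (10 genes) to 128 to 131 and 240.4 to 262 CPM. The bile duct list was split, with 1 gene higher and 4 lower (median log2 difference −0.06, range −3.21 to 2.99). The T-cell genes Cd3e, Cd3g and Cd8a and the erythroid Slc4a1 had 0 reads in every library, but other genes of the leukocyte and erythroid lists were read. The leukocyte gene Ptprc had 14 to 336 reads per library, S100a9 1 to 40 and the erythroid Alas2 18 to 69. The rest of these lists had at most 25 reads in a library. In bulk RNA, fewer cells of a type and less RNA per cell cannot be told apart, and the part of these other cells in the members' values was not tested.

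In a dividing cell, E2F factors switch on the genes that license origins and copy DNA, Cdc6 and Cdt1 load the Mcm2 to Mcm7 helicase onto DNA, and Pcna clamps the polymerases. Later, the MuvB complex with B-Myb and Foxm1 switches on genes of G2 and mitosis, often through a promoter element called CHR, and the same complex with Rb-like proteins represses them in resting cells. Most hepatocytes of an adult liver rest, and many are polyploid. Many mRNAs of mitosis are known to be short-lived.

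Before actinomycin D, the genes of DNA copying stood lower in Mettl3 cKO hepatocytes while several mitotic genes stood higher. Of the 38 members, 11 were higher (28.9%) and 14 lower (36.8%) in Mettl3 cKO at an adjusted p under 0.05 from edgeR's quasi-likelihood test. Over all 14488 genes tested, 29.6% were higher and 25.5% lower, so the share of members that were higher was close to that of all genes. The median log2 difference was −0.13 over the members and 0.03 over all genes tested. In origin licensing and replication, 7 of 9 were lower and 1 was higher, whereas in the class of mitotic cyclins and kinases 6 of 9 were higher and 1 was lower. The checkpoint and kinetochore class had 2 of 6 higher and 0 lower, spindle and cytokinesis 1 of 7 higher and 2 lower, and chromosome structure 1 of 5 higher and 3 lower. By CPM, both Mettl3 cKO libraries lay above both Control libraries for 14 members (36.8%; 43.3% of all genes tested) and below them for 18 (47.4%; 32.2% of all genes tested), and 6 members overlapped. All of the differences were under 1 on the log2 scale, from −0.80 for Ect2 to 0.75 for Aurka.

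**Figure D1:**
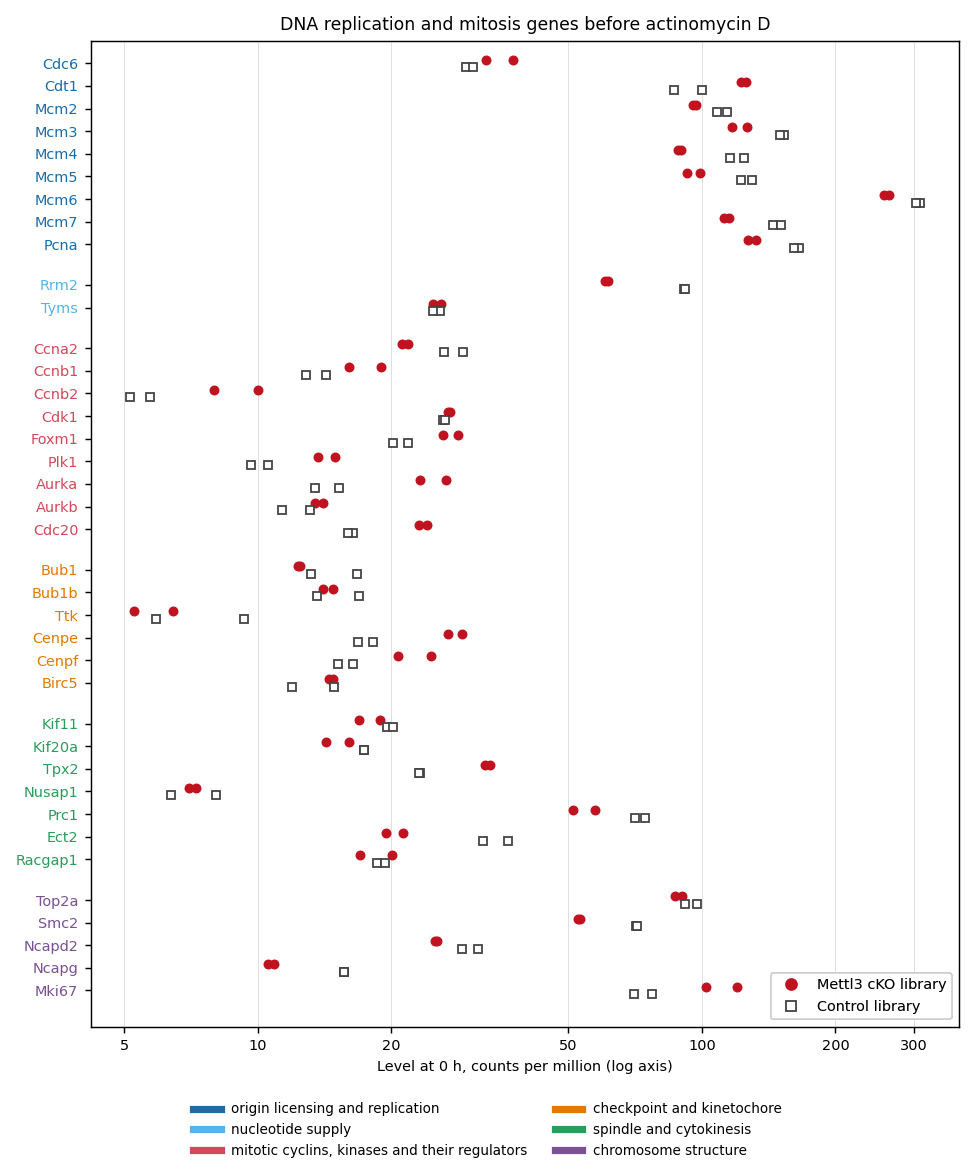
Level of each of the 38 members at 0 h in CPM on a log axis, with filled circles for the 2 Mettl3 cKO libraries and open squares for the 2 Control libraries, and gene names coloured by role class. Mcm2 to Mcm7 and Pcna lie to the left of their Control squares, and Aurka, Ccnb2, Cenpe, Cenpf, Tpx2 and Mki67 to the right of theirs.

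Mcm6, a subunit of the replicative helicase, was the most abundant member. It had 258 and 264 CPM in Mettl3 cKO, against 309.9 and 303 CPM in Control (log2 difference −0.27, SE 0.05, edgeR adjusted p = 4.54e-05). Pcna, the sliding clamp, had 132 and 127 CPM in Mettl3 cKO, against 166 and 161 CPM in Control (log2 difference −0.37, SE 0.05, edgeR adjusted p = 2.88e-06). Both Mettl3 cKO libraries lay below both Control libraries for each of these genes. The other 5 Mcm subunits moved the same way, with log2 differences of −0.47 for Mcm4, −0.44 for Mcm5, −0.42 for Mcm7, −0.36 for Mcm3 and −0.25 for Mcm2, so all 6 subunits of the ring were called lower. Per kb of exon, Mcm6 stood at 55.9 CPM in Mettl3 cKO and 65.7 in Control, and Pcna at 54.1 and 68.1, the highest levels among the members. Part of the Mcm7 exons (12.6%) overlaps Ap4m1, Cops6 and 2 miRNA genes, which an unstranded library cannot separate. In all, 11 members had exons that overlap another gene, among them Ncapg (13.4%, Lcorl), Ccna2 (12.5%, Exosc9) and Prc1 (11.1%, Rccd1).

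Cdt1, the licensing factor that loads the helicase, ran the other way. It had 123 and 126 CPM in Mettl3 cKO, against 99.9 and 86.5 CPM in Control (log2 difference 0.38, SE 0.07, edgeR adjusted p = 6.47e-05), and the genotypes did not overlap. Its partner Cdc6 had 32.6 and 37.7 CPM in Mettl3 cKO, against 29.5 and 30.5 CPM in Control, a difference that did not pass the test (log2 difference 0.19, 95% interval −0.01 to 0.38). Rrm2, the small subunit of ribonucleotide reductase, which makes deoxyribonucleotides, had 60.4 and 61.3 CPM in Mettl3 cKO, against 91.4 and 91.8 CPM in Control (log2 difference −0.63, SE 0.07, edgeR adjusted p = 6.32e-08). Thus Rrm2 was lower in both Mettl3 cKO libraries. Tyms, thymidylate synthase, had 24.8 and 25.8 CPM in Mettl3 cKO, against 25.7 and 24.8 CPM in Control, and the libraries of the genotypes overlapped (log2 difference −0.04, 95% interval −0.21 to 0.14).

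Among the mitotic regulators, Aurka, a kinase of the centrosome and spindle poles on chromosome 2 (172356190 to 172370535, mm10, minus strand), had the largest positive difference. It had 26.5 and 23.1 CPM in Mettl3 cKO, against 15.2 and 13.4 CPM in Control (log2 difference 0.75, SE 0.11, edgeR adjusted p = 4.29e-06). Tpx2, which binds Aurka and activates it on spindle microtubules, had 33.3 and 32.5 CPM in Mettl3 cKO, against 23.2 and 23.1 CPM in Control (log2 difference 0.47, SE 0.09, edgeR adjusted p = 9.6e-05). Neither gene had a Mettl3 cKO library within the Control range. Ccnb2, a B-type cyclin, had 9.99 and 7.96 CPM in Mettl3 cKO, against 5.72 and 5.17 CPM in Control (log2 difference 0.68, SE 0.17, edgeR adjusted p = 0.00179), again with both Mettl3 cKO libraries above. Foxm1, the transcription factor of G2 genes, had 28.2 and 26.1 CPM in Mettl3 cKO, against 20.2 and 21.8 CPM in Control (log2 difference 0.33, SE 0.10, edgeR adjusted p = 0.0087), also without overlap. Cdc20, an activator of the anaphase-promoting complex, Plk1, a mitotic kinase, and Ccnb1, the main mitotic cyclin, were higher too, with log2 differences of 0.50, 0.46 and 0.33. Cdk1, the kinase that B-type cyclins activate, had 27.2 and 26.8 CPM in Mettl3 cKO, against 26.2 and 26.3 CPM in Control, and after TMM scaling no difference was detected (log2 difference 0.00, 95% interval −0.20 to 0.20). Ccna2, the cyclin of S phase and G2, was the only one of this class that was lower (log2 difference −0.40, SE 0.10, edgeR adjusted p = 0.00107).

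Genes of the kinetochore and of chromosome structure were split. Cenpe, the kinesin that carries chromosomes along spindle microtubules, had 28.9 and 26.8 CPM in Mettl3 cKO, against 16.8 and 18.2 CPM in Control (log2 difference 0.63, SE 0.12, edgeR adjusted p = 0.000144). Cenpf, a large protein of the outer kinetochore, had 24.5 and 20.7 CPM in Mettl3 cKO, against 15.2 and 16.4 CPM in Control (log2 difference 0.48, SE 0.12, edgeR adjusted p = 0.00183). The 4 other genes of that class, namely Bub1, Bub1b, Ttk and Birc5, did not pass the test. Mki67, the coat protein of mitotic chromosomes known as the Ki-67 antigen, had 120.1 and 102 CPM in Mettl3 cKO, against 70.4 and 77.3 CPM in Control (log2 difference 0.55, SE 0.08, edgeR adjusted p = 2.08e-06) and thus no overlap between genotypes. Against this, the condensin subunits Ncapg, Smc2 and Ncapd2 were lower, by log2 differences of −0.59, −0.47 and −0.30. Ncapg had 10.5 and 10.9 CPM in Mettl3 cKO, against 15.6 and 15.7 CPM in Control. Top2a, topoisomerase II alpha, had 90.1 and 87.1 CPM in Mettl3 cKO, against 91.7 and 97.7 CPM in Control, slightly lower in both Mettl3 cKO libraries but not past the test (log2 difference −0.14, 95% interval −0.28 to 0.01).

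For cytokinesis, Ect2, the exchange factor that turns on RhoA at the cell equator, on chromosome 3 (27097222 to 27153878, mm10, minus strand), had the largest negative difference of all members. It had 21.2 and 19.4 CPM in Mettl3 cKO, against 32.1 and 36.6 CPM in Control (log2 difference −0.80, SE 0.11, edgeR adjusted p = 9.98e-07). Prc1, which bundles antiparallel microtubules of the spindle midzone, had 57.3 and 51.4 CPM in Mettl3 cKO, against 74.6 and 70.8 CPM in Control (log2 difference −0.46, SE 0.08, edgeR adjusted p = 1.52e-05). Both genes separated the genotypes fully, while the centralspindlin subunit Racgap1 did not pass the test (log2 difference −0.07, 95% interval −0.32 to 0.17).

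The count of members higher at 0 h fell to 8 without Mettl3 cKO 0 h replicate 1. Without that library the edgeR adjusted p was 0.0515 for Ccnb2, 0.0569 for Cenpf and 0.0902 for Foxm1, and Foxm1 also missed the threshold without Control 0 h replicate 1 (0.0875). The call of Plk1 ended without any one of the 4 libraries at 0 h (0.0522 to 0.168), that of Ccnb1 without Control 0 h replicate 2 (0.155) or Mettl3 cKO 0 h replicate 2 (0.238), and that of Ncapd2 without Control 0 h replicate 1 (0.0694).

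Promoter sequences of RefSeq (GRCm38.p6, the build also called mm10) were matched to 32 of the 38 members by symbol and searched on both strands over 250 bases before and 50 after the first listed start. The motifs were the CHR (TTTGAA or TTCGAA), the CCAAT box that NF-Y binds (CCAAT), and E2F sites (TTTCGCGC, TTTGGCGC, TTTCCCGC, TTTGCCGC or TTCCCGCC). Overlapping matches were counted separately, and no match overlapped a match of another motif in the promoters shown. A CHR was found in 20 of the 32 members (62.5%, against 19.4% of 27025 genes), a CCAAT box in 27 (84.4% against 37.9%) and an E2F site in 9 (28.1% against 3.97%). By class, an E2F site was in 6 of 8 promoters of origin licensing and replication and in 1 of 6 of the mitotic cyclin and kinase class, and a CHR in 2 of 8 and 5 of 6. By direction at 0 h, a CHR was in 6 of 9 promoters of members higher in Mettl3 cKO and in 7 of 12 of those lower, and an E2F site in 1 of 9 and 6 of 12. These counts follow the role classes and were not tested.

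Below are 4 promoters over 280 bases, 250 before the start and 30 after it. They were chosen because Mcm6 stands for the lower replication genes with E2F sites, Ccnb2 and Cenpf for higher genes with a CHR and CCAAT boxes, and Ect2 for a lower gene with the same elements. Capitals mark matches to the motifs named above in either strand, and all are read 5′ to 3′ along the gene. Mcm6 is chr1:128359676-128359955, minus strand, Ccnb2 is chr9:70421525-70421804, minus strand, Cenpf is chr1:189688057-189688336, minus strand and Ect2 is chr3:27153849-27154128, minus strand.
Mcm6: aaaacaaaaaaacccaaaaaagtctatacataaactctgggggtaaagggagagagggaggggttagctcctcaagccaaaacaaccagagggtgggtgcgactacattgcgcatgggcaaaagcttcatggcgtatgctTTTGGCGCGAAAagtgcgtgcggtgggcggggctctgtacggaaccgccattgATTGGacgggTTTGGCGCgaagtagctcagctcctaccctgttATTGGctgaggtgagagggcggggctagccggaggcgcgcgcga
Ccnb2: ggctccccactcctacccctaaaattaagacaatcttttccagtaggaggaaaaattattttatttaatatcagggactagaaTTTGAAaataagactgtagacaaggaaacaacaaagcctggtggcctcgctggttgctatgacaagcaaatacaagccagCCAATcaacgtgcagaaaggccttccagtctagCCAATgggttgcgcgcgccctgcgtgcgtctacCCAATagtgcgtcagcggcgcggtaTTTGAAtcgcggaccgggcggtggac
Cenpf: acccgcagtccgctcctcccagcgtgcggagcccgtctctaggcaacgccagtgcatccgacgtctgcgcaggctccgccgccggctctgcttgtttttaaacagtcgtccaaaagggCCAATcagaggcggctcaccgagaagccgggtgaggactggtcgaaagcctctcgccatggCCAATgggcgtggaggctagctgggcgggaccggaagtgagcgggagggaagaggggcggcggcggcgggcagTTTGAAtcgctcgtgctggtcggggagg
Ect2: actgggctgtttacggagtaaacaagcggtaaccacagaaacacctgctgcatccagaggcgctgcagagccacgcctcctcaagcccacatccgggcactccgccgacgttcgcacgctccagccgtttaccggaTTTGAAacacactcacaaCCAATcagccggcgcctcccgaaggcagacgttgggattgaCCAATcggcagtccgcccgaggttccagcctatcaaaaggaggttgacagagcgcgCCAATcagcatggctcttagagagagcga
The Mcm6 window holds 3 E2F matches, of which 2 overlap each other, 2 CCAAT boxes and 0 CHR. Ccnb2 holds 2 CHR and 3 CCAAT boxes, Cenpf 1 CHR and 2 CCAAT boxes, and Ect2 1 CHR and 3 CCAAT boxes. Over the 300 bases searched Ect2 had 2 CHR, 1 of them past the window shown. Ect2 was chosen for having these kinds of element, and whether they relate to the direction of a difference was not tested. A match is a run of letters and not a measured binding site.

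Other genes of the same pathways, listed from general knowledge, were read beside the members at 0 h. Over all genes tested, 29.6% were higher and 25.5% lower at this time. Of 39 further replication genes, 5 were higher and 20 lower in Mettl3 cKO (median log2 difference −0.25), and of 9 further genes of nucleotide supply 0 were higher and 5 lower (median −0.30). The clamp loader subunit Rfc4 (−0.83) and Uhrf1 (−0.80), which reads hemimethylated DNA behind the fork, had the largest differences of the first list, and the folate enzyme Mthfd1 (−0.67) and deoxycytidine kinase Dck (−0.64) of the second. Of 67 further mitosis genes, 19 were higher and 11 lower (median 0.10), led by Fam83d (1.52), which places a kinase on the spindle, and the phosphatase Cdc25b (1.37), which activates Cdk1. Of 19 E2F, Rb and DREAM regulators 0 were higher and 9 lower, with Rbl2 at −1.45, the Rb relative p130, and the activator E2f2 at −1.37. Of 21 genes of replication stress and recombination 0 were higher and 10 lower, among them the checkpoint kinase Chek2 (−1.03) and the recombination ATPase Rad54l (−0.90). At 2 h, 7 of the further replication genes were higher and 19 lower, and of the further mitosis genes 30 were higher and 7 lower. At 6 h these counts were 6 and 23 for replication, and 16 and 17 for mitosis. The E2F, Rb and DREAM list had 6 higher and 7 lower at both 2 h and 6 h, replication stress and recombination 6 and 8 at 2 h and 5 and 9 at 6 h, and nucleotide supply 0 and 5, then 0 and 7. All genes tested had 32.3% higher and 28.6% lower at 2 h, and 35.4% and 33.1% at 6 h. Among the further mitosis genes, the share that was higher was near that of all genes at 0 h. It was above that of all genes at 2 h and below it at 6 h.

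After 2 h of actinomycin D, most differences kept their direction, and Cenpe and Cenpf stood apart further. In Mettl3 cKO, 13 of 38 members were higher (34.2%; 32.3% of all genes tested) and 15 lower (39.5%; 28.6% of all genes tested), with a median log2 difference of −0.03 over the members and 0.03 over all genes. Cenpe had 22.1 and 19 CPM in Mettl3 cKO, against 8.25 and 8.36 CPM in Control (log2 difference 1.19, SE 0.14, edgeR adjusted p = 7.74e-08). Cenpf had 18.1 and 18.3 CPM in Mettl3 cKO, against 8.14 and 6.84 CPM in Control (log2 difference 1.16, SE 0.14, edgeR adjusted p = 7.46e-08). These were the only 2 members with a difference over 1. The share of all genes tested with such a difference was not counted. In both Cenpe and Cenpf the lower Mettl3 cKO library held more than 2 times the CPM of the higher Control library.

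Aurka had 18.1 and 18.6 CPM in Mettl3 cKO, against 9.84 and 8.86 CPM in Control at 2 h (log2 difference 0.85, SE 0.12, edgeR adjusted p = 1.8e-06). Mki67 had 94.4 and 92.1 CPM in Mettl3 cKO, against 52 and 45.7 CPM in Control (log2 difference 0.82, SE 0.08, edgeR adjusted p = 3.83e-09). No Mettl3 cKO library reached the Control range of either gene. Among the members that were lower, Prc1 had 41.1 and 43 CPM in Mettl3 cKO, against 62.7 and 69.2 CPM in Control (log2 difference −0.77, SE 0.08, edgeR adjusted p = 5.37e-09). Ttk, the Mps1 kinase of the spindle checkpoint, had 2.67 and 2.57 CPM in Mettl3 cKO, against 4.58 and 3.7 CPM in Control (log2 difference −0.78, SE 0.25, edgeR adjusted p = 0.0103), at the lowest mean level of any member in Mettl3 cKO at that time, and its call ended without Control 2 h replicate 1 (adjusted p = 0.104). The call of Ccnb2 at 2 h (log2 difference 0.53) ended without Control 2 h replicate 2 (adjusted p = 0.148) and when replicate 1 of Mettl3 cKO at 2 h was left out (0.0527). Cdk1 had 28 and 23.6 CPM in Mettl3 cKO, against 21.2 and 19.3 CPM in Control, and its call (adjusted p = 0.045) ended when any of 9 of the 12 libraries was left out.

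At 6 h, the lower members outnumbered the higher ones. In Mettl3 cKO, 9 of 38 were higher (23.7%; 35.4% of all genes tested) and 19 lower (50% of members; 33.1% of all genes tested), with a median log2 difference of −0.34 against 0.03 over all genes. Cenpe had 9.86 and 8.63 CPM in Mettl3 cKO, against 3.65 and 1.91 CPM in Control (log2 difference 1.44, SE 0.19, edgeR adjusted p = 2.32e-07). Cenpf had 7.86 and 6.16 CPM in Mettl3 cKO, against 2.21 and 2.51 CPM in Control (log2 difference 1.28, SE 0.19, edgeR adjusted p = 1.73e-06). Aurka had 11 and 9.31 CPM in Mettl3 cKO, against 3.65 and 3.66 CPM in Control (log2 difference 1.19, SE 0.15, edgeR adjusted p = 2.15e-07). Together with Cdt1, these were the only 4 members higher by over 1 on the log2 scale, and in each the 2 genotypes were fully apart. Neither share was counted over all genes tested at this time. Cdt1 had 71.8 and 72.4 CPM in Mettl3 cKO, against 26 and 29.5 CPM in Control (log2 difference 1.09, SE 0.08, edgeR adjusted p = 5.32e-12). At the other end, Ect2 had 6.65 and 5.63 CPM in Mettl3 cKO, against 11.8 and 9.18 CPM in Control (log2 difference −1.06, SE 0.15, edgeR adjusted p = 5.77e-07), the only member lower by over 1.

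A further 5 members were called at a single time. Birc5, the survivin subunit of the chromosomal passenger complex, was higher only at 2 h (0.42, against 0.09 at 0 h and 0.06 at 6 h), and Kif20a, a kinesin of the midzone, was lower at 2 h only (−0.36). Of the Kif20a exons, 29.3% overlap Cdc23, which unstranded reads cannot separate. Bub1 (−0.53) and Bub1b (−0.67), which hold anaphase until chromosomes are attached, and Racgap1 (−0.34) were called lower at 6 h alone. All 5 calls were weak: that of Birc5 ended without Control 2 h replicate 2 (edgeR adjusted p = 0.0723) or Mettl3 cKO 2 h replicate 2 (0.125), that of Kif20a without Mettl3 cKO 2 h replicate 1 (0.063), and those of Bub1 (0.0908), Bub1b (0.0832) and Racgap1 (0.16) without Control 6 h replicate 1. Bub1 also lost its call without Mettl3 cKO 6 h replicate 2 (0.0529) and Racgap1 without Mettl3 cKO 6 h replicate 1 (0.155), and with total counts only Birc5 of the 5 kept its call. A call at one time and not at another was not tested as a difference between times.

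Ncapg had 4.64 and 4.16 CPM in Mettl3 cKO, against 8.26 and 6.07 CPM in Control at 6 h (log2 difference −0.99, SE 0.17, edgeR adjusted p = 1.25e-05). Top2a had 27 and 31.6 CPM in Mettl3 cKO, against 38.4 and 34.3 CPM in Control (log2 difference −0.60, SE 0.08, edgeR adjusted p = 6.47e-07). Both condensin and topoisomerase were thus lower in each Mettl3 cKO library, and all 4 members of chromosome structure other than Mki67 were called lower. The sums of macrophage markers at 6 h were 310.0 to 337 CPM in Mettl3 cKO and 97.5 to 117 CPM in Control, those of stellate and fibroblast markers 392 to 418 and 176 to 178 CPM, those of endothelial markers 86.4 to 97.3 and 36.0 to 39.7 CPM, and those of bile duct markers 97.8 to 102 and 368 to 389 CPM in the same order. Hepatocyte markers summed to 67527 to 67543 CPM in Mettl3 cKO and 98812 to 106440 CPM in Control, with 2 of 10 higher and 7 lower (median log2 difference −1.10). The part of these markers' cells in the members' values was not tested. Sex-linked reads set the Control libraries at 6 h apart from all others, so that difference and genotype cannot be told apart at this time.

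**Figure D2:**
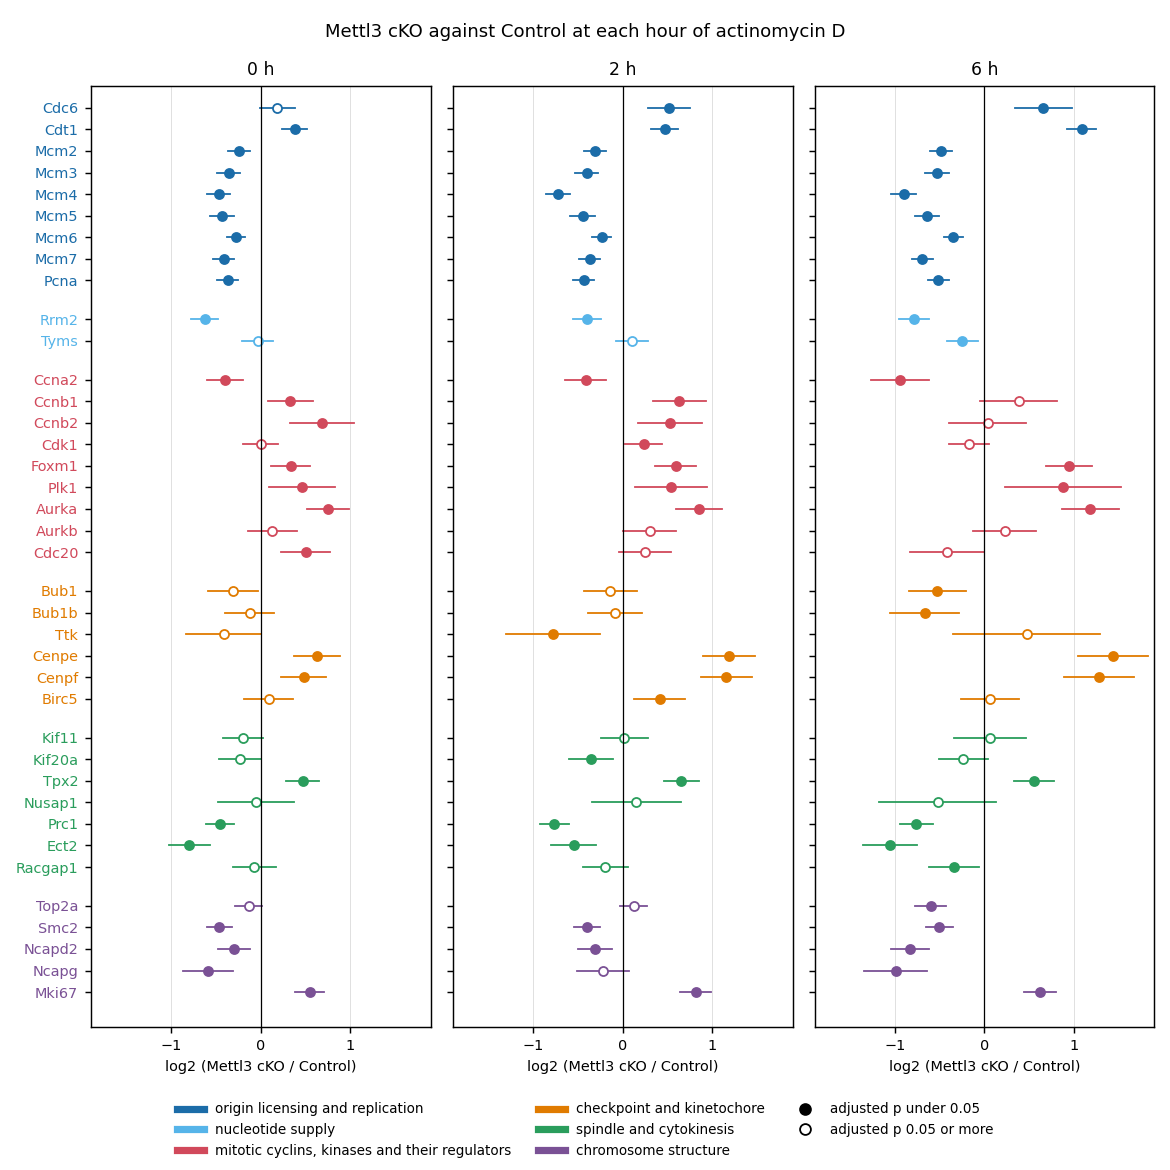
Log2 ratio of Mettl3 cKO to Control for the 38 members at 0, 2 and 6 h, with 95% intervals from edgeR's quasi-likelihood fit, filled where the adjusted p was under 0.05. Mcm2 to Mcm7, Pcna and Rrm2 lie left of 0 in all 3 panels, and Cdt1, Foxm1, Aurka, Plk1, Cenpe, Cenpf, Tpx2 and Mki67 lie right of 0.

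Over the 3 times, 8 members were called higher at each (Aurka, Cdt1, Cenpe, Cenpf, Foxm1, Mki67, Plk1 and Tpx2; 21.1%, near the 20.8% of all genes tested) and 13 were called lower at each (Ccna2, Ect2, Mcm2 to Mcm7, Ncapd2, Pcna, Prc1, Rrm2 and Smc2; 34.2%, against 18.8%). Plk1 lost its call at every time when single libraries were left out, at 2 h without Control 2 h replicate 2 (edgeR adjusted p = 0.303) or Mettl3 cKO 2 h replicate 2 (0.182), and at 6 h without Control 6 h replicate 2 (0.0621) or Mettl3 cKO 6 h replicate 1 (0.588). Aurkb, Kif11 and Nusap1 were called at no time, and 0 members were higher at one time and lower at another. Both Mettl3 cKO libraries lay below both Control libraries at each time for 13 members (34.2%; 18.1% of all genes tested), all 6 Mcm genes among them. Scaling by total counts in place of TMM, the usual scaling of edgeR, left all 6 lower at 0 h and 2 h and 5 of 6 at 6 h, where Mcm6 missed the threshold (log2 difference −0.06, adjusted p = 0.302). That scaling moved the median of all genes to 0.07, 0.15 and 0.32 at 0, 2 and 6 h. It moved the share of higher genes among all calls to 63.9% at 2 h (53.1% with TMM) and 70.1% at 6 h (51.7% with TMM), and the members to 17 higher and 13 lower at 2 h and 11 higher and 14 lower at 6 h. Tyms, lower at 6 h with TMM (log2 difference −0.25, SE 0.08, edgeR adjusted p = 0.011), stood at 0.039 with total counts and was then not called.

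Under actinomycin D, all 27 members of the mitotic and chromosome classes had fallen by 6 h in both genotypes, while in origin licensing and replication 5 of 9 fell in each. In Control, the 6 h libraries differ from the 0 h libraries in sex-linked reads. That difference and time cannot be told apart in any Control value at 6 h against 0 h, here or below. In Control the call of Ccnb2 was lost with TMM (edgeR adjusted p = 0.301), with DESeq2 size factors (0.439) and without Control 6 h replicate 2 (0.0519), and those of Bub1 (0.109) and Smc2 (0.0501) with DESeq2 size factors. In origin licensing and replication, the median share of 0 h CPM left at 6 h was 81.6% in Mettl3 cKO and 80.7% in Control. For the mitotic and chromosome classes it was at most 44.6% and 45.8%, a difference between classes that was not tested. At 2 h against 0 h, 23 members (60.5%) fell and 0 rose in Mettl3 cKO, against 29.2% and 12% of all genes tested, and 28 (73.7%) fell and 0 rose in Control, against 36.3% and 12.9%. By 6 h, 33 of 38 had fallen in each genotype (86.8%), against 45.7% of all genes in Mettl3 cKO and 56.3% in Control, with 1 member higher in Mettl3 cKO and 0 in Control (18.3% and 17% of all genes). The median log2 change at 6 h was −1.14 in Mettl3 cKO (all genes −0.27) and −1.22 in Control (all genes −0.59). These levels are relative to the library total, and with TMM the 6 h counts in Mettl3 cKO were 5 that rose and 31 that fell, and in Control 7 and 29. TMM moved the share of rises among all calls at 6 h to 48.8% in Mettl3 cKO (28.6% with total counts) and 46.1% in Control (23.1%), and at 2 h to 47.4% (29.2%) and 48.3% (26.2%).

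Mcm2, Mcm5, Mcm6, Pcna and Tyms kept over 90% of their 0 h CPM at 6 h in both genotypes. Mcm6 kept 108% in Mettl3 cKO and 96% in Control, with 286 and 280.1 CPM in Mettl3 cKO and 297 and 292 CPM in Control at 6 h. The rise of Mcm6 in Mettl3 cKO (log2 difference 0.12, SE 0.05, edgeR adjusted p = 0.0365) was lost in 8 of the 12 fits that left out 1 library. In this class the directions over time depend on the scaling: with TMM, 6 of the 9 genes were called higher at 6 h in Control, where 0 were with total counts. The deepest loss within the class was that of Cdc6, the ATPase that starts licensing with Cdt1. Mettl3 cKO kept 48.5% of its level at 2 h and 20.2% at 6 h, and Control 36.5% and 12.2%. Cdt1 kept 58% at 6 h in Mettl3 cKO and 29.8% in Control.

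Under 25% of the 0 h CPM was left at 6 h for 8 members in Mettl3 cKO (Ccna2, Ccnb1, Cdc20, Cdc6, Kif11, Nusap1, Plk1 and Ttk) and for 8 in Control (Ccna2, Ccnb1, Cdc6, Cenpe, Cenpf, Kif11, Plk1 and Ttk). Ccna2 kept 16% in Mettl3 cKO and 19.5% in Control, and Kif11, the motor that pushes spindle poles apart, 17.6% and 12.3%. By contrast Smc2 kept 70.2% and 60.8%, and Ccnb2 45.5% and 59.7%, so the B-type cyclins differed from each other: Ccnb1 was at 19% in Mettl3 cKO and 15.4% in Control. The class medians at 6 h were 41.0% in Mettl3 cKO and 28.8% in Control for mitotic cyclins and kinases, 32.1% and 24.4% for checkpoint and kinetochore, 41.4% and 40.6% for spindle and cytokinesis, and 44.6% and 45.8% for chromosome structure.

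**Figure D3:**
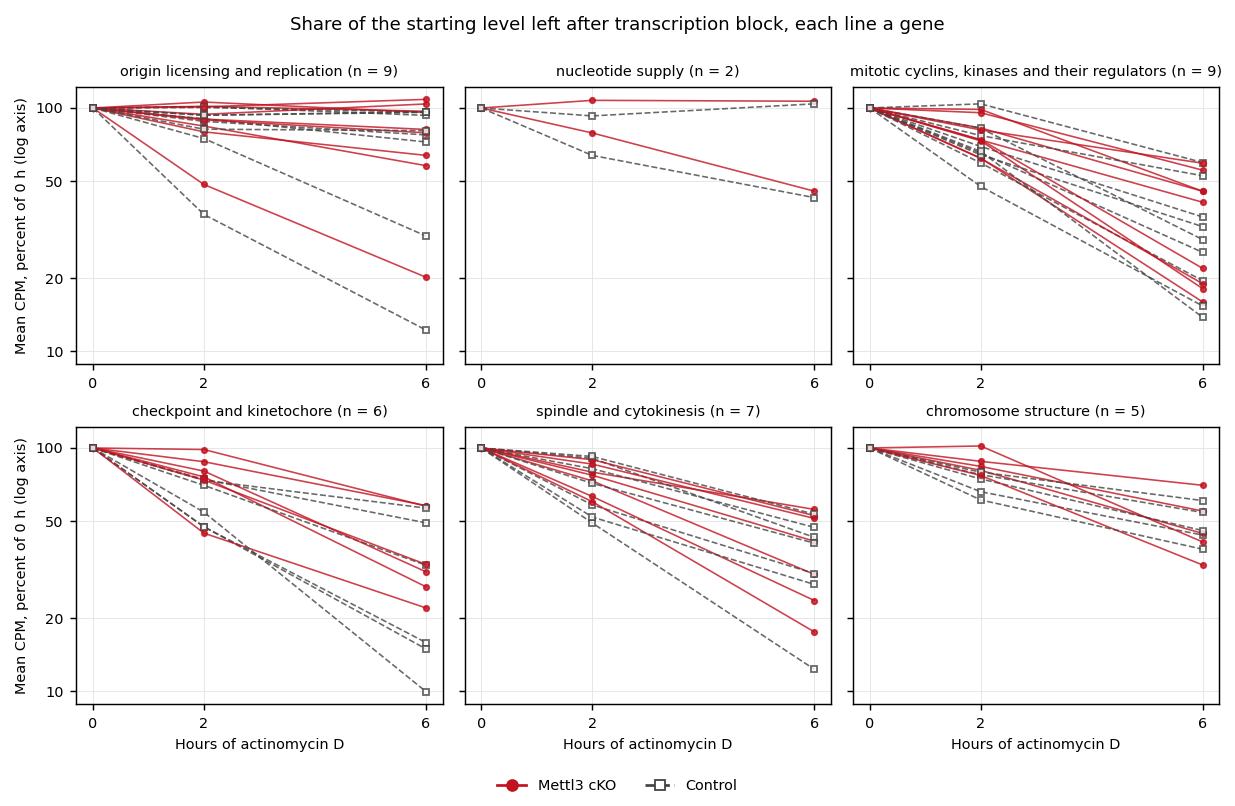
Mean CPM of each member at 2 and 6 h of actinomycin D as a percent of its mean at 0 h (log axis), with solid red lines for Mettl3 cKO and dashed grey lines for Control, in 1 panel per role class. In origin licensing and replication, Mcm2 to Mcm7 and Pcna keep at least 63.9%, the value of Mcm4 in Mettl3 cKO, and Cdc6 and Cdt1 lie lower, while the other classes fan out to as low as 9.98% for Ttk in Control. The 6 h Control libraries differ from the 0 h Control libraries in sex-linked reads.

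Subtracting the Control slope from that of Mettl3 cKO, in log2 units per hour over all 3 times, asks whether an mRNA fell more slowly in Mettl3 cKO. It was positive at an adjusted p under 0.05 for 5 members (13.2%; 24.3% of all genes tested) and negative for 0 (2.57% of all genes tested). The median was 0.01 over the members and 0.04 over all genes. The 5 were Cenpe (slope difference 0.17, SE 0.05, edgeR adjusted p = 0.0211), Cenpf (slope difference 0.17, SE 0.04, edgeR adjusted p = 0.0133), Cdt1 (slope difference 0.16, SE 0.02, edgeR adjusted p = 0.000104), Foxm1 (slope difference 0.14, SE 0.03, edgeR adjusted p = 0.00429) and Aurka (slope difference 0.11, SE 0.03, edgeR adjusted p = 0.0155). These slopes use the 6 h Control libraries, whose difference in sex-linked reads cannot be told apart from one in slope.

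All 5 also stood higher in Mettl3 cKO at each time. Foxm1 had 21.4 and 22.7 CPM in Mettl3 cKO, against 14.2 and 12.7 CPM in Control at 2 h, and 16.7 and 15.5 CPM in Mettl3 cKO, against 7.78 and 5.87 CPM in Control at 6 h. At 6 h Cenpe kept 33.2% of its 0 h CPM in Mettl3 cKO and 15.9% in Control, and Cenpf 31% and 14.9%. The calls depended on the scaling and on the libraries: 2 members were positive and 3 negative with TMM (59.9% of all calls positive, against 90.4% with total counts), and Cenpe then had an edgeR adjusted p of 0.0618 and Cenpf of 0.0594. The count of positive members was also 2 when replicate 1 of Mettl3 cKO at 6 h was left out, where Cenpe (0.0801), Cenpf (0.066) and Aurka (0.0822) missed the threshold. Cenpe also missed it without Control 6 h replicate 2 (0.0882), Control 0 h replicate 2 (0.0593) or Mettl3 cKO 0 h replicate 2 (0.0549).

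The 6 h Control libraries can be left out of a slope over 0 and 2 h alone, with 13.7% of the 14277 genes tested there called positive and 1.65% negative. It was fitted with total counts alone, which made 89.3% of all its calls positive. Other scalings and fits without single libraries were not run for it. By this measure 5 members were again positive (13.2%) and 0 negative, and 2 of them, Cenpf (slope difference 0.38, SE 0.09, edgeR adjusted p = 0.00246) and Cenpe (slope difference 0.32, SE 0.08, edgeR adjusted p = 0.00541), were also positive over all 3 times. The others were Mki67 (slope difference 0.17, SE 0.05, edgeR adjusted p = 0.0333), Top2a (slope difference 0.17, SE 0.05, edgeR adjusted p = 0.0143) and Rrm2 (slope difference 0.15, SE 0.05, edgeR adjusted p = 0.0346). Cdt1 (slope difference 0.085, edgeR adjusted p = 0.264), Foxm1 (0.17, 0.13) and Aurka (0.088, 0.586), called over all 3 times, did not pass over 0 and 2 h. Top2a had 69 and 67.6 CPM in Mettl3 cKO, against 61 and 54.9 CPM in Control at 2 h, and 77.1% of the 0 h level was left in Mettl3 cKO and 61.2% in Control. At 6 h 33% and 38.4% was left, so the order of the genotypes was the other way round. Rrm2 had 50 and 46.1 CPM in Mettl3 cKO, against 61.5 and 55.5 CPM in Control at 2 h, still below Control.

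**Figure D4:**
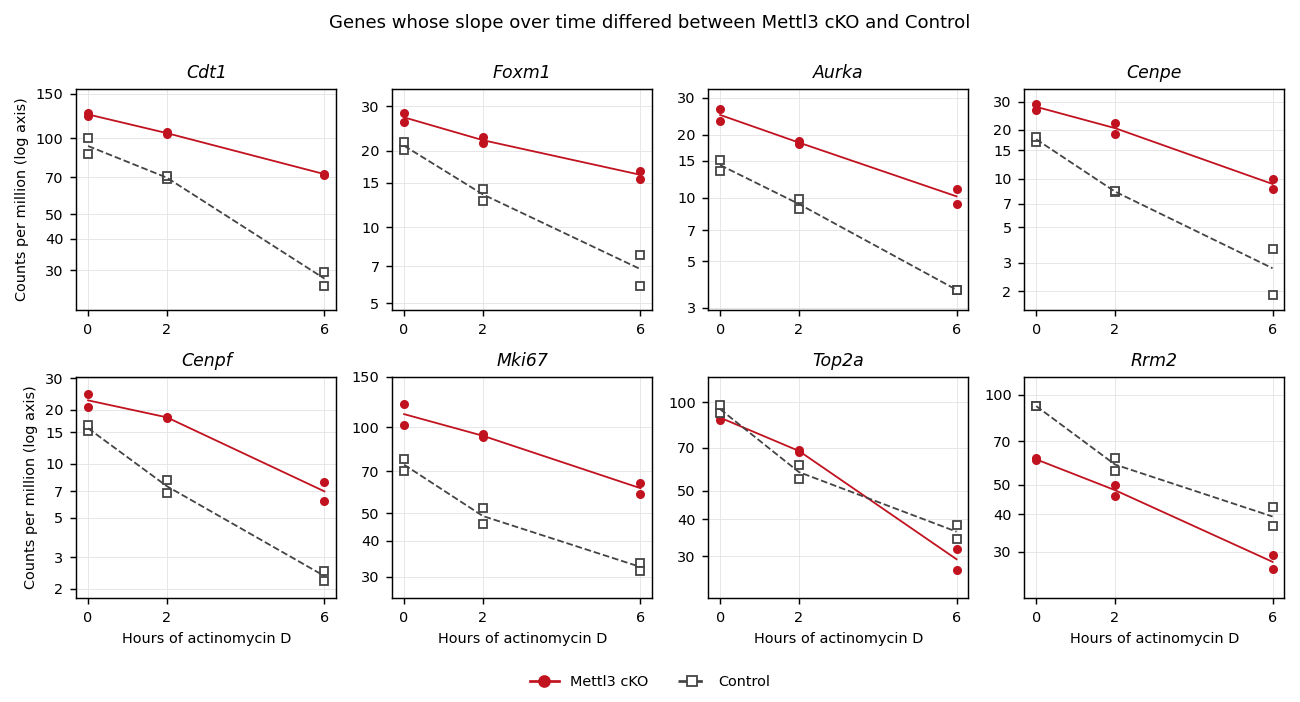
Level in CPM (log axis, own range in each panel) against hours of actinomycin D for the 8 members with a difference in slope over all 3 times or over 0 and 2 h, with 1 point per library and lines through the means of 2 libraries. Red Mettl3 cKO lines lie above the grey Control lines at every time for Cdt1, Foxm1, Aurka, Cenpe, Cenpf and Mki67, below them for Rrm2, and cross them for Top2a.

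Properties of the transcripts that the choice of members did not use were read from the mm10 annotation of Gencode M21, in which all 38 gene IDs were found. Cenpf and Mki67 were the only 2 members with an internal exon of at least 1000 bases, of 3428 and 6836 bases, a share (5.26%) close to that of all tested genes with a coding transcript (6.01%). Over these 2 genes the median slope difference over all 3 times was 0.11, with 0.17 for Cenpf, and over the other 36 members it was 0.01. Of the 2, only Cenpf was called over all 3 times. These slopes use the 6 h Control libraries, which differ in sex-linked reads. For all tested genes with such an exon the median was 0.14 (n = 799), and for those without 0.04 (n = 12492). Across the 38 members, which share their 12 libraries, the slope difference fell with the number of exons per kb (Pearson r = −0.20, Spearman rho = −0.32). Across 13291 genes the values were −0.35 and −0.40. At the low end of exon density were Mki67 (1.39 exons per kb), Cenpf (1.62), Foxm1 (1.72) and Cdk1 (1.83). The slope difference of Cdk1 was 0.00 (95% interval −0.06 to 0.07) per hour. The other members with a called slope difference over all 3 times, Cenpe (5.82), Aurka (4.72) and Cdt1 (4.57), were not at this end. The median over the members was 4.66 exons per kb. Genes are not independent replicates, and these correlations describe 1 set of libraries.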

How the data were processed

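The authors aligned poly(A) RNA-seq reads to mm10 with STAR (2.5.3a) and counted reads per gene with featureCounts (2.0.1), per the labels and the methods, and deposited the raw counts of 48440 genes in 12 libraries. The Gencode release behind the counts was not given in the sources used here. The libraries were not stranded and no spike-in is described. Gene positions and exons came from Gencode M21 on mm10, which held 48058 of the 48440 gene IDs and all 38 members.

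Genes were kept by filterByExpr (minimum count 10, minimum total 15) and tested in R 4.3.3 with edgeR 4.0.16 (quasi-likelihood F-test, limma 3.58.1, Benjamini-Hochberg over all genes tested, threshold 0.05) in 1 fit over the 6 groups. Library sizes were scaled by TMM between genotypes and by total counts over time and for slopes, since actinomycin D lowers most mRNAs. CPM values are counts per 1000000 of the library total. Intervals are 95% intervals of the fit. The tests were also run on simulated data in which few genes changed. These data hold far more changed genes, so that run does not show the error rates here. Alternatives were other scalings, no filter, DESeq2 1.42.0, a replicate block, a fold threshold, fewer times and each library left out.

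Whether the 2 replicates of a group were separate animals or cultures is not stated, and a p-value therefore reflects only how far these libraries varied, possibly for technical reasons. Members and lists were chosen with earlier results of these data known. Values per library are given for the 2 most abundant members of each role class and for up to 6 called members with the largest difference in each comparison of genotypes, and up to 2 called genes of each further pathway list at 0 h. Members named outside this rule were chosen after their values were seen.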

Additional observations from a re-analysis of the deposited data

Results flagged for a closer look

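For 8 members the change over time differed between the genotypes with total counts, in a test of the difference in slope itself. The slope of Control was subtracted from that of Mettl3 cKO, in log2 units per hour. The test was edgeR's quasi-likelihood test with Benjamini-Hochberg adjustment over all genes tested, on 2 libraries for each genotype and time. Over 0, 2 and 6 h, Cenpe differed by 0.17 (adjusted p = 0.0211), Cenpf by 0.17 (0.0133), Cdt1 by 0.16 (0.000104), Foxm1 by 0.14 (0.00429) and Aurka by 0.11 (0.0155). Over 0 and 2 h alone, which leaves out the 6 h Control libraries that differ in sex-linked reads, Cenpf differed by 0.38 (0.00246), Cenpe by 0.32 (0.00541), Mki67 by 0.17 (0.0333), Top2a by 0.17 (0.0143) and Rrm2 by 0.15 (0.0346). These were 13.2% of the members in each case, against 24.3% of all genes tested with a positive difference over the 3 times and 13.7% over 0 and 2 h, so the members were not called more often than genes at large. Cenpe and Cenpf, a kinesin and a large protein of the kinetochore, were the only 2 members in both lists. Over 0 and 2 h alone, Cdt1 (adjusted p = 0.264), Foxm1 (0.13) and Aurka (0.586) did not pass. Both slopes were fitted with total counts here, and the one over 0 and 2 h was not fitted with other scalings or without single libraries. With TMM, 2 members were positive and 3 negative over the 3 times. Cenpe (edgeR adjusted p = 0.0618), Cenpf (0.0594) and Aurka (0.108) then missed the threshold. Over the 3 times, the difference of the 6 h Control libraries in sex-linked reads cannot be told apart from one in slope.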

How the results depend on the processing

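Of 214 differences of single genes, 154 kept their direction and call in every alternative and 60 lost the call or turned in some. Between genotypes, the counts of members higher and lower were within 1.5 times those reported at each time, with 1 exception. An added threshold of 1 on the log2 difference left 0, 2 and 4 higher and 0, 0 and 1 lower at 0, 2 and 6 h. The share of all genes tested past that threshold was not counted. Over time the scaling mattered more. With TMM and with DESeq2 size factors, Mettl3 cKO had 1 and 4 members higher at 2 h, 5 and 5 higher at 6 h, and 14 and 14 lower at 2 h. With the same scalings, Control had 2 and 2 higher at 2 h, 7 and 7 higher at 6 h, and 18 and 18 lower at 2 h. In Control at 6 h against 0 h, Mcm3 turned to 0.14 and 0.20, Mcm4 to 0.042 and 0.10, and Mcm7 to 0.20 and 0.26 on the log2 scale with these scalings. Tyms at 6 h turned to 0.039 with total counts. The 1 member higher at 6 h in Mettl3 cKO, Mcm6, was not called without the filter or with the replicate block (0 in each). Positive differences in slope numbered 2 with TMM, 2 with DESeq2 size factors and 3 over 2 and 6 h alone, and negative ones 3, 6 and 1. The causes were not tested.

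Leaving out each library in turn gave 8 to 11 members higher and 14 to 15 lower at 0 h, 9 to 13 and 14 to 16 at 2 h, and 8 to 9 and 16 to 20 at 6 h. For slopes it gave 2 to 6 positive and 0 to 1 negative, with 2 positive without Mettl3 cKO 6 h replicate 1 and 1 negative without Control 6 h replicate 2. Over time, Mettl3 cKO had 12 to 26 members lower at 2 h and 33 to 33 at 6 h, with 12 without Mettl3 cKO 0 h replicate 1 and 13 without Mettl3 cKO 2 h replicate 2, and Control had 20 to 29 and 32 to 34. Members higher over time were 0 to 0 at 2 h in both genotypes and at 6 h in Control, and 0 to 1 at 6 h in Mettl3 cKO. A lone library of a group was assumed to vary like the other groups.

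Samples with the same replicate number did not deviate together (15 correlations from −0.07 to 0.03, 0 over 0.1). No pairing by number was seen, but these values cannot show whether such libraries shared a mouse or a preparation. With the replicate block, 11 members were higher and 15 lower at 0 h, 12 and 15 at 2 h and 9 and 19 at 6 h, and 5 slopes were positive and 0 negative. Depth was 13 to 6180 reads for a member in a library, and 37 of 38 members had at least 100 reads in every 0 h library.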
